A study of Mus with 438 samples.

Results

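Single cones from the superior (dorsal) and inferior (ventral) zones of the retina of control mice at postnatal day 60 were compared across all listed genes. The cells were chosen by their labels, as every control library of that age in the deposited expression table: 27 libraries from the superior zone and 21 from the inferior zone. Superior libraries 03 and 14 deviated from the zone mean in the same way (Pearson's r = 0.993 over genes on the log2 scale, against 0.0675 for the next highest pair), so they were averaged and counted as 1 cell. This left 26 superior and 21 inferior cones, or 47 of the 429 cells in the table, which holds 430 RNA libraries of a series of 438 labelled samples. All were C57BL/6 mice of genotype Trb2Cre-het:Ai6, in which 1 copy of the thyroid hormone receptor gene Thrb carries Cre recombinase at its cone isoform TRβ2 and the Ai6 reporter makes the Cre-positive cells fluorescent. The control cones of every age share this altered allele. Zone pieces were dissected, dissociated with papain, and fluorescent cells were picked singly with a micropipette before SMART-Seq v4 amplification. The values set beside them come from control cones of the same genotype at P2, P8, P21 and 2 months (2m), from 2m Trb2Cre-KO:Ai6 cones, and from 2m rods of tgNrl:gfp mice. The labels name no animal, so each zone at P60 is 1 sample, the cells within it are not replicates, and no p-value was computed between the P60 zones.

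Mouse cones carry a medium-wavelength (M) opsin, Opn1mw, and a short-wavelength (S) opsin, Opn1sw, and many cones hold both. M opsin prevails in the superior retina and S opsin in the inferior retina. TRβ2, a cone-restricted receptor that binds DNA and responds to thyroid hormone, is required for M opsin and restrains S opsin. Vax2 is a homeobox factor of the ventral eye.

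Sequencing depth was similar in both zones: 897893 to 3888570 reads per superior library (median 1942880) and 902554 to 4274340 per inferior library (median 2219180), with a median of 4332 and 4068 genes above 0. Expression is in CPM, a gene's reads scaled to a common library total. The cone genes Arr3, Gnat2, Pde6h, Gngt2 and Pde6c were above 1 CPM in all 47 cells, and Gnat2, the cone transducin alpha subunit, ranged from 5060 to 16068 CPM against a mean of 0.265 CPM in rods. Inferior cells 17 and 18 also carried rod RNA, at 13004 and 11800 CPM of rod transducin Gnat1, 2417 and 823 CPM of the rod phosphodiesterase Pde6b and 378 and 628 CPM of the rod nuclear receptor Nr2e3, beside 55420 and 50256 CPM of Opn1sw. The other cells held at most 1145 CPM of Gnat1. Values without these 2 rod-rich cells are given where they differ most from those with all cells.

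The opsins formed the clearest contrast between the zones. Opn1sw ran from 125 to 41767 CPM over the superior cones, with a median of 1069 and a mean of 8870. In the inferior cones it ran from 50256 to 98171 CPM, with a median of 75335 and a mean of 72134. Every inferior cone lay above every superior cone, and Opn1sw was the only gene of the 9694 counted (0.0103%) whose values in the 2 zones did not overlap. The log2 ratio of mean CPM, superior minus inferior, was -3.02, an 8.13-fold lower mean in the superior zone. All log2 ratios given here add a pseudocount of 1 CPM to each zone mean, which understates the change of low genes and, for a gene near 0 in 1 zone, makes the ratio depend on the pseudocount.

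Opn1mw went the other way. It ran from 3653 to 25613 CPM in superior cones (median 9954, mean 10221) and from 2.38 to 6938 CPM in inferior cones (median 2924, mean 2729), a log2 ratio of 1.90. The ranges overlapped, with 20 of 26 superior cones above the highest inferior cone. The lowest inferior value belonged to rod-rich cell 17. Without cells 17 and 18 the inferior range began at 233 CPM and the log2 ratio was 1.78.

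The spread of each opsin differed by zone. Among superior cones Opn1sw spanned a 334-fold range and Opn1mw a 7.01-fold range. Among inferior cones Opn1sw spanned only a 1.95-fold range while Opn1mw spanned a 2914-fold range, or a 29.8-fold range without the 2 rod-rich cells. Superior cones thus varied most in S opsin and inferior cones in M opsin. Of the superior cones, 13 held less than 1000 CPM of Opn1sw and 7 held more than 10000 CPM. The M share, Opn1mw as a percent of both opsins in a cell, ran from 15% to 99.2% in superior cones (median 91.5%) and from 0.0043% to 9.55% in inferior cones (median 4.0%). More Opn1mw than Opn1sw was found in 19 of 26 superior cones (73.1%, exact Clopper-Pearson 95% interval 52.2% to 88.4%, counting error only). None of 21 inferior cones had more Opn1mw, for which the same interval reaches 16.1%. Both opsins together took 1.91% of reads in superior and 7.49% in inferior cones on average.

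**Figure D1:**
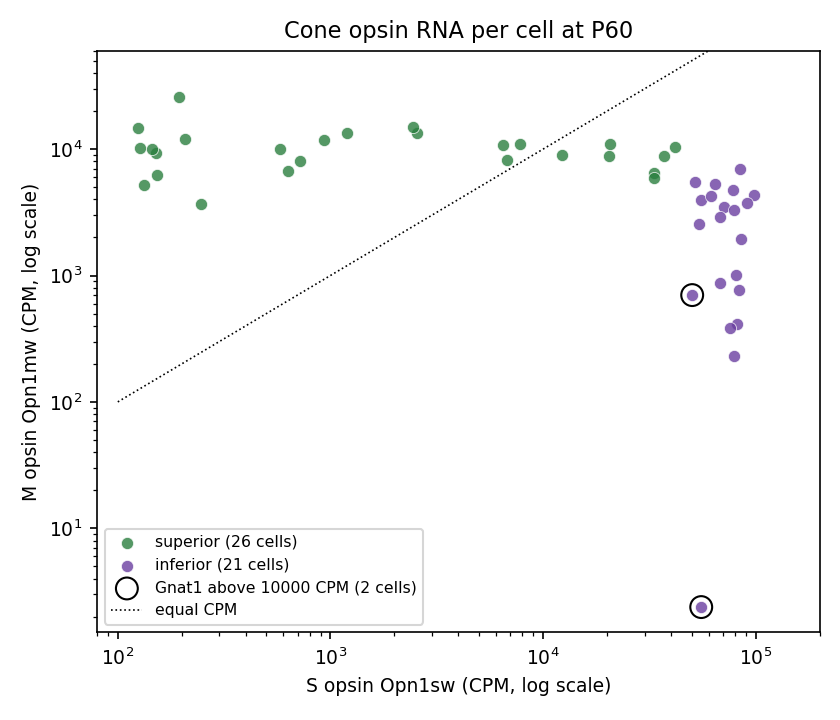
CPM of Opn1sw (horizontal, log scale) against CPM of Opn1mw (vertical, log scale) in each P60 cone, with superior cones in green, inferior cones in purple, and the 2 rod-rich inferior cells ringed. Superior cones spread from 125 to 41767 CPM along the Opn1sw axis, inferior cones lie between 50256 and 98171 CPM, and 19 superior cones lie above the dotted line of equal CPM.

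Across the table, the difference between the zones was described by a rule of size. A gene met it where the log2 ratio of mean CPM and the difference of the mean of log2(CPM + 1) over cells were both at least 1 in the same direction, the higher zone had a mean of at least 10 CPM, and at least 25% of its cells were above 1 CPM. Over the 9694 genes that averaged 5 CPM or more in either zone, 629 (6.49%) were higher in superior cones and 328 (3.38%) in inferior cones, 957 (9.87%) in all. Superior genes made up 65.7% of these. The median log2 ratio over all counted genes was itself 0.14 toward superior. A TMM factor, which centres the bulk of genes, gave 489 and 401 genes and a superior share of 54.9%, and rescaling to the listed genes without the 2 opsins gave 543 and 379 and a share of 58.9%. With libraries 03 and 14 kept as 2 cells the counts were 666 and 327, and without the 2 rod-rich cells they were 654 and 392.

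Among genes higher in superior cones, Smug1 was the clearest. Smug1 (gene ID 71726, chromosome 15, 103153290 to 103168939, GRCm38.p6) encodes a uracil DNA glycosylase of base excision repair. It ran from 166 to 2185 CPM in superior cones, with a median of 786 and a mean of 846, and was above 1 CPM in 26 of 26. In inferior cones its median was 0, its highest value 360 CPM and its mean 17.7 CPM, with 2 of 21 above 1 CPM (1.17% to 30.4%). A single inferior cell gave 96.8% of the inferior sum, and 20 superior cones lay above it. The log2 ratio was 5.50. Of the other base excision repair genes on the list, 10 were counted with Smug1 included. Apex1, the endonuclease that acts after the glycosylases, was the other that met the rule, with 9 of 26 superior and 1 of 21 inferior cones above 1 CPM and a log2 ratio of 2.51. Its mean log2 ratio over the 4 other control collections was 0.009, against 2.91 for Smug1. The list's median was -0.13, and 9.87% of all counted genes met the rule in either direction.

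Samd7 encodes a retinal protein of the Polycomb repressive machinery (chromosome 3, 30746293 to 30767174). It had a median of 354 and a highest value of 1699 CPM in superior cones, 18 of 26 of them above 1 CPM (48.2% to 85.7%), and 8 at or below it. In inferior cones 2 of 21 were above 1 CPM, and the highest, 292 CPM, was a rod-rich cell that gave 99.0% of the inferior sum. The log2 ratio was 4.70 with the rod-rich cells and 8.41 without them. Its partner Samd11 went the other way, with 6 superior and 10 inferior cones above 1 CPM and a log2 ratio of -2.25. The unnamed transcript A930001M01Rik was present in every superior cone, from 2.57 to 619 CPM (median 211), and in 5 of 21 inferior cones (median 0, highest 400 CPM), a log2 ratio of 2.85. Lhx4, a LIM homeobox factor, was above 1 CPM in 14 superior and 2 inferior cones, with a log2 ratio of 3.0. Kpna2, an importin that carries proteins into the nucleus, ran from 218 to 1906 CPM (median 760) in superior cones and from 0 to 794 CPM (median 174) in inferior cones, and 12 superior cones lay above all inferior ones.

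Other large superior ratios came from a minority of cells. Chrnb4, a nicotinic receptor subunit, reached 1690 CPM and was above 1 CPM in 10 superior and 2 inferior cones. Qsox2, Ankrd13a and Clasrp were above 1 CPM in 8, 7 and 7 superior cones and in no inferior cone. Dpy19l4, Sympk and Ttf1 were above 1 CPM in 9, 7 and 9 superior cones and in 1 inferior cone each. Ssfa2, Carf and Banp were in 7, 8 and 7 superior cones and 2 inferior cones each. For the 9 genes other than Chrnb4, median CPM was 0 in both zones, so their ratios rest on at most 10 cells above 1 CPM each. The 4 other control collections averaged log2 ratios of -0.37 for Qsox2, -0.62 for Clasrp, -1.53 for Carf, 0.32 for Ankrd13a and 0.17 for Banp. Those of Chrnb4, Dpy19l4, Sympk, Ttf1 and Ssfa2 averaged 1.03, 2.21, 0.87, 1.25 and 1.18.

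Among genes higher in inferior cones, Syndig1l was the counterpart of Smug1. Syndig1l (chromosome 12, 84677277 to 84698947) encodes a transmembrane protein related to the synapse factor Syndig1. It had a median of 130 and a highest value of 750 CPM in inferior cones, 18 of 21 above 1 CPM (63.7% to 97.0%), and did not exceed 2.00 CPM in any superior cone. All 18 of those inferior cones lay above the highest superior cone. The unnamed transcript BE949265 was above 1 CPM in 20 inferior cones (median 340 CPM, highest 1417) and 8 superior cones (median 0.223, highest 367), a log2 ratio of -2.92. BB114814 was in 13 inferior cones and in no superior cone above 1 CPM. Cxx1c was found in all 21 inferior cones, from 2.38 to 409 CPM (median 104), and in 20 superior cones at a median of 6.41 CPM, a log2 ratio of -3.05. Cxx1c belongs to a group of near-identical genes on chromosome X, and its counts may include reads of its copies.

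Members of the ventral patterning list were found above 1 CPM in inferior cones only, for the 3 genes Vax2, Vax2os and En2. Vax2 was 0 in every superior cone, which by the exact interval allows a share of up to 13.2% of cells with a read, and was above 1 CPM in 6 of 21 inferior cones, reaching 213 CPM. Of those 6 cones 2 were the rod-rich cells, and 4 of 19 were above 1 CPM without them. Its overlapping neighbour Vax2os was likewise 0 in every superior cone and above 1 CPM in 11 inferior cones, up to 83.7 CPM, or in 9 of 19 without the rod-rich cells. Where the pair overlap, and with a kit that does not mark strand, their reads cannot be told apart. The homeobox gene En2 was above 1 CPM in 6 inferior cones and no superior cone. These 3 of the 4 counted members of the ventral list met the rule toward inferior, against 3.38% of all genes. The list is short, was chosen with earlier results of these data known, and counts Vax2 and Vax2os apart. Of the dorsal list 2 members were counted and neither met it, too few to set apart from the 9.87% of all genes. Nr2f2 was seen above 1 CPM in 4 superior and 0 inferior cones. The axon guidance receptor Epha8 was above 1 CPM in 10 inferior and 0 superior cones, and Tenm3, a teneurin of synaptic partner matching, in 6 and 0.

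App, the amyloid precursor gene, was above 1 CPM in 11 of 21 inferior cones (29.8% to 74.3%), reaching 1112 CPM, while the highest superior cone held 0.499 CPM. The other large inferior ratios were in Polr3f (6 inferior and 0 superior cones), Ddx25 (6 and 0), Meg3 (7 and 1) and Sos2 (7 and 1). Log2 ratios of Polr3f, Ddx25, Meg3 and Sos2 were -6.43, -5.07, -4.67 and -4.36 at P60. They averaged -1.75, -0.24, -1.69 and -1.59 over the 4 other control collections.

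**Figure D2:**
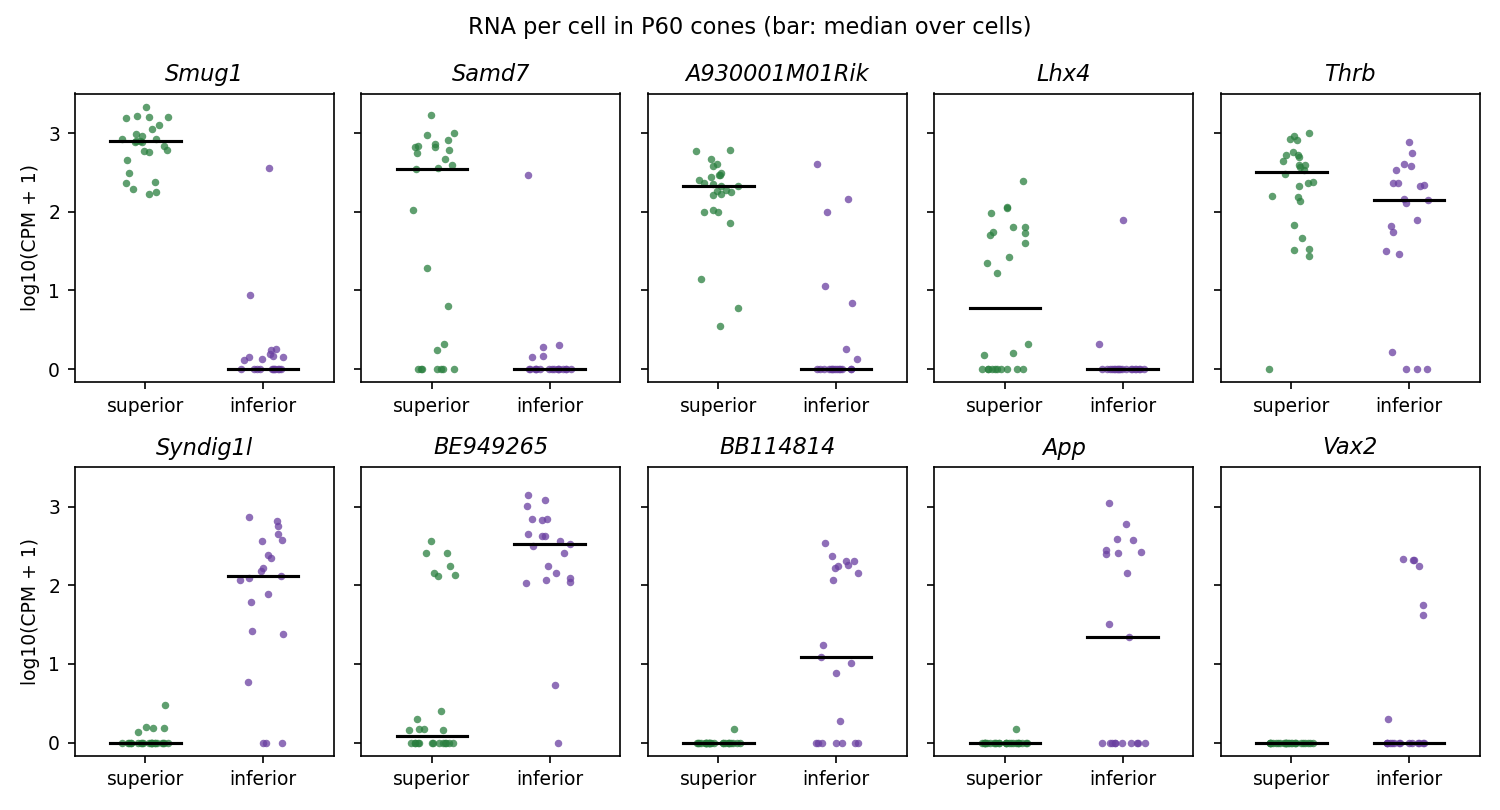
Values of 10 genes in each P60 cone as log10(CPM + 1), superior cones in green and inferior cones in purple, with a bar at the median over cells. Smug1 and A930001M01Rik are above 1 CPM in all 26 superior cones and in 2 and 5 inferior cones, Syndig1l and BE949265 are above 1 CPM in 18 and 20 inferior cones and in 1 and 8 superior cones, and App and Vax2 are above 1 CPM in 11 and 6 inferior cones only.

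The cascade that turns light into a signal was followed with 22 counted cone phototransduction genes. Of these, 2 met the rule toward superior (Opn1mw and Slc24a2, a cone calcium exchanger) and 2 toward inferior (Opn1sw and Guca1b, a guanylate cyclase activator), and the median log2 ratio was -0.01 against 0.14 over all genes. Leaving the opsins aside, the share that met the rule was near the 9.87% of all genes. Slc24a2 was barely past the rule, at a log2 ratio of 1.03, and fell short of it without the rod-rich cells, at 0.88. Guca1b had medians of 101 CPM (superior) and 289 CPM (inferior), a log2 ratio of -1.79, or -1.19 without the rod-rich cells. Gnat2 had medians of 10581 and 9330 CPM (log2 ratio 0.12), the phosphodiesterase Pde6c 2368 and 2087 CPM (0.05), and cone arrestin Arr3 7146 and 4780 CPM (0.37). Guca1a had medians of 1640 and 2480 CPM (-0.57). The values of these last 4 genes overlapped over most of their range.

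The thyroid hormone pathway had 0 of 11 counted genes past the rule, a list too short to set apart from the 9.87% of all genes. Thrb itself (chromosome 14, 17659225 to 18040097) had a median of 323 CPM in superior cones, from 0 to 1014, and of 140 CPM in inferior cones, from 0 to 776. It was above 1 CPM in 25 of 26 and 17 of 21 cones. The log2 ratio was 0.89, short of the rule, and the ranges overlapped, with 4 superior cones above all inferior ones. The hormone receptor Thra had a log2 ratio of 0.69, the retinoid X receptor Rxrg -0.33 and the hormone-responsive factor Klf9 0.10. Crym, a thyroid hormone binding protein, was at 0 in all 47 cones.

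Of 17 counted photoreceptor transcription factors, Samd7 and Samd11 met the rule, and the median was 0.00, or 0.32 without the rod-rich cells. Crx, a master regulator of photoreceptor genes, had medians of 1302 and 1157 CPM. The outer segment and cilium list had 3 of 25 genes higher in superior cones and none in inferior cones, against 6.49% and 3.38% of all genes, with a median of 0.10, or 0.27 without the rod-rich cells. Cdhr1, a cadherin at the base of the outer segment, ran from 1235 to 4309 CPM (median 1924) in superior cones and from 1.6 to 2406 CPM (median 1050) in inferior cones, and 10 superior cones lay above all inferior ones. Impg1, a proteoglycan of the matrix around photoreceptors, had medians of 394 and 185 CPM, and Bbs1, a subunit of the ciliary BBSome, medians of 95.4 and 0 CPM. The synaptic list had Erc2, an active zone scaffold, higher in superior and Syndig1l higher in inferior cones of 24 counted, with a median of 0.17. Mitochondrial respiration had 0 of 25 genes past the rule, against 9.87% of all genes, and a median of 0.03. Glycolysis had 1 of 19, the glucose transporter Slc2a1, which was higher in inferior cones (medians 4.06 and 222 CPM, log2 ratio -1.33), and a median of 0.09. The mean log2 ratio over the 4 other control collections was 0.39 for Slc2a1, -0.26 for Erc2 and -0.01 for Bbs1. For Cdhr1, Impg1, Syndig1l, Samd7 and Samd11 it was 0.22, 0.36, -3.41, 3.31 and -1.29.

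Kcne2, an accessory subunit of potassium channels, was the 1 gene of 10 counted channel genes past the rule, with medians of 423 CPM (superior) and 1701 CPM (inferior) and a log2 ratio of -1.47. Fzd10, a Wnt receptor, was higher in superior cones among 8 counted BMP and Wnt genes (log2 ratio 1.31, or 1.93 without the rod-rich cells). Among 15 stress and immediate early genes, Egr1 was higher in superior cones (9 and 2 cells above 1 CPM) and Atf4, a transcription factor of the stress response, in inferior cones (10 and 13 cells). Mean log2 ratios over the 4 other control collections were -1.38 for Kcne2, 0.65 for Fzd10, -0.17 for Egr1 and -0.12 for Atf4. None of 4 counted retinoic acid pathway genes met the rule. Of all counted genes 9.87% met it, and lists as short as these cannot be set apart from that share.

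**Figure D3:**
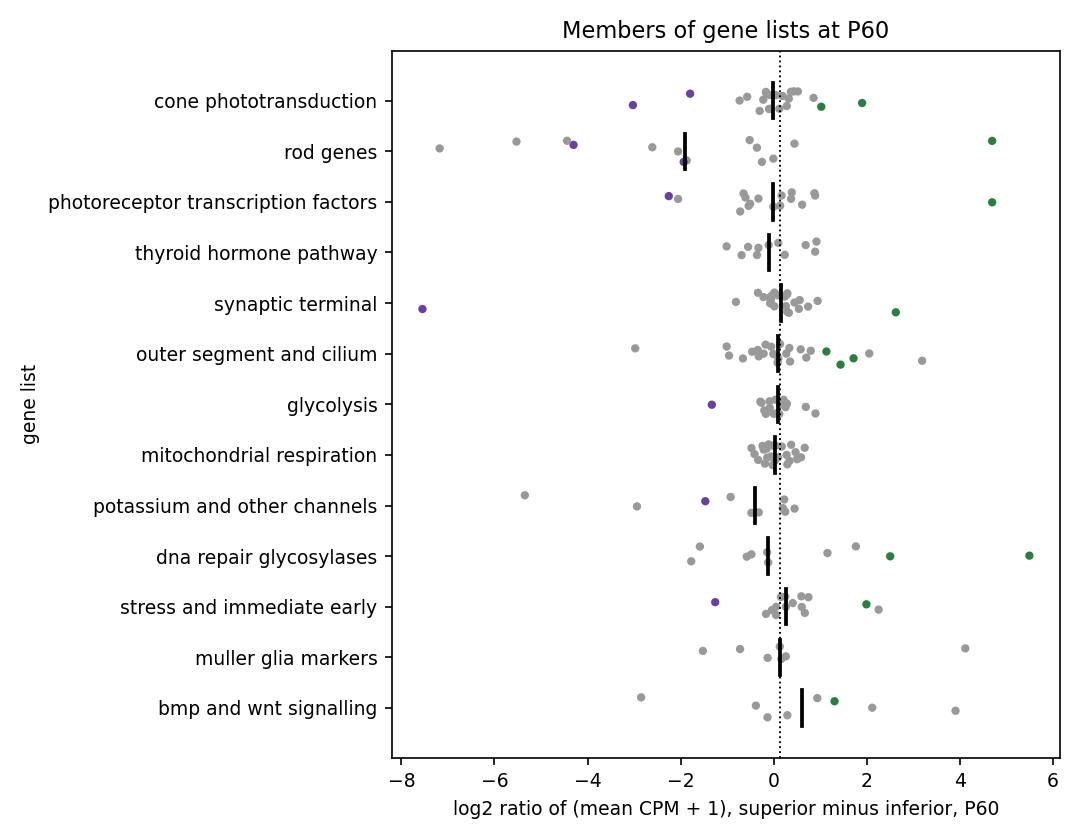
Log2 ratio of (mean CPM + 1) at P60, superior minus inferior, for every counted member of 13 gene lists, with green for members past the size rule toward superior, purple toward inferior and grey for neither. Black bars mark the list medians and the dotted line the median over all counted genes, 0.14. The rod list has a median of -1.90 and the lists of cone phototransduction, synaptic terminal and mitochondrial respiration have medians of -0.01, 0.17 and 0.03.

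Markers of other cells were measured beside these results. The rod list had a median log2 ratio of -1.90 over 14 counted genes, and of -0.04 without the 2 rod-rich inferior cells. Its sum ran from 9209 to 22415 CPM in superior cones and from 12631 to 47223 CPM in inferior cones, or up to 30463 CPM without those 2, and from 73203 CPM upward in rods. Sag and other members are also expressed by cones. Gnat1 and Reep6 met the rule toward inferior, and without the 2 cells their log2 ratios went from -4.30 to -1.26 and from -1.93 to -0.21. Of 7 counted Müller glia markers none met the rule, against 9.87% of all genes, and their sum had medians of 1410 CPM (superior) and 1380 CPM (inferior). Of 3 bipolar cell markers counted, Scgn and Lhx4 met the rule toward superior and Cabp5 toward inferior, and the sum ran from 0 to 952 CPM in superior and 0 to 861 CPM in inferior cones. Over the 4 other control collections the mean log2 ratios of these 3 markers were -1.62, 1.81 and -1.01. No counted marker of amacrine (2), horizontal (1), ganglion (2), pigment epithelium (1) or microglial (1) cells met the rule. Both ganglion markers had a higher mean in inferior cones, and their sum ran from 0 to 817 CPM there and from 0 to 227 CPM in superior cones. The vascular gene Kdr was at 0 in all 47 cones. Their part in the other zone differences was not tested.

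Next to Opn1sw on chromosome 6 (29376671 to 29380513) lies Ccdc136 (29396574 to 29426995), a coiled-coil protein gene. It ran from 1.34 to 2536 CPM in superior cones (median 475) and from 1170 to 4452 CPM in inferior cones (median 2322), a log2 ratio of -1.51. Within the 26 superior cones its level fell in order with the M share, with a Spearman coefficient of -0.76, and within the 21 inferior cones the coefficient was -0.25. Smug1 had coefficients of -0.24 and 0.64, and Thrb of -0.40 and -0.27. Most inferior cones held 0 or less than 1 CPM of Smug1, so its 0.64 mainly ranks values near the floor. All these coefficients describe cells of 1 sample per zone that share its dissection, and they carry no test.

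A few genes differed mainly in how many cones held them. The share of cells above 1 CPM was at least 50 percentage points higher in superior cones for 6 genes (0.0619% of those counted) and in inferior cones for 6 others (0.0619%). Toward superior these were Smug1, A930001M01Rik, Samd7, Slc25a28, Derl1 and Prrc2a. Slc25a28, a mitochondrial iron carrier, was above 1 CPM in 23 of 26 superior and 7 of 21 inferior cones. Derl1, which acts in disposal of misfolded proteins from the endoplasmic reticulum, was in 20 and 5 cones. Prrc2a was in 18 and 4 cones at nearly equal means of 8.51 and 8.91 CPM, and the inferior mean was 3.62 CPM without the rod-rich cells. Toward inferior they were Syndig1l, BE949265, BB114814, Vax2os, App and Bag1, and the co-chaperone gene Bag1 was in 8 superior and 17 inferior cones. In 2m controls the log2 ratio was 1.55 for Slc25a28, 0.89 for Derl1, -0.35 for Prrc2a and -0.24 for Bag1. These genes were picked after their values were seen.

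The other control collections share no cells with P60. In 2m cones, 391 of the 629 superior genes (62.2%) had a higher superior mean, against 56.2% of all counted genes, and 180 of the 328 inferior genes (54.9%) a higher inferior mean, against 43.8%. By the mean of log2 values, 508 superior genes (80.8%, background 74.6%) and 113 inferior genes (34.5%, background 25.4%) kept their direction. A difference of at least 2-fold in the same direction was found for 101 superior genes (16.1%, background 17.1%) and 53 inferior genes (16.2%, background 8.58%). On the mean of log2 values the counts were 173 superior genes (27.5%, background 17.5%) and 20 inferior genes (6.10%, background 0.794%). The inferior share was above the background on both scales, and the superior share only on the mean of log2 values. The 2m libraries were deeper than those of P60, with medians of 12569000 (superior) and 13578800 (inferior) reads. On the mean of log2 values the median over all counted genes was 0.35 toward superior at 2m. The part of depth in these shares was not tested.

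**Figure D4:**
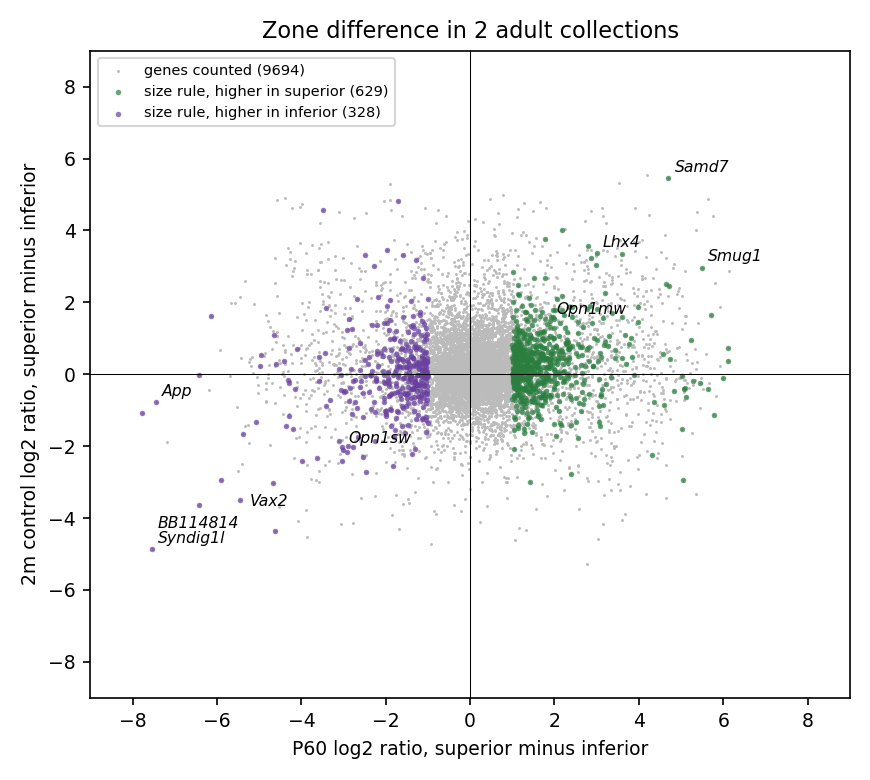
Log2 ratio of (mean CPM + 1), superior minus inferior, at P60 (horizontal) and in 2m controls (vertical) for 9694 genes, with the 629 and 328 genes of the P60 size rule in green and purple. Of these, 391 green genes lie above 0 and 180 purple genes below 0 on the vertical axis; Smug1 and Samd7 stand at the upper right and Syndig1l at the lower left.

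A small set met the full size rule at P60, P21 and 2m alike. Of the 65 genes (0.671%) that met it toward superior at both P21 and 2m, 15 also met it at P60: Smug1, Samd7, Chrnb4, Lhx4, Marcks, A930001M01Rik, Mrps23, Kpna2, Opn1mw, Cap2, Ptp4a2, Lemd2, Dirc2, Stom and Trp53inp2. Of the 10 genes (0.103%) that met it toward inferior at P21 and 2m, 9 did at P60: Syndig1l, BB114814, Cxx1c, Opn1sw, BE949265, Socs3, 4933416I08Rik, Cabp5 and Ssbp4. At P60, 6.49% of all counted genes met the rule toward superior and 3.38% toward inferior. The set of genes that met it in all these collections was picked after its values were seen.

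At P2 the log2 ratios of Smug1, Opn1sw and Syndig1l were nearer to 0 than at P60. The log2 ratio of Smug1 was 1.46 at P2, 2.61 at P8, 4.59 at P21, 5.50 at P60 and 2.97 at 2m. Opn1sw gave -0.37, -1.62, -3.65, -3.02 and -2.09 at the same ages. Opn1mw was listed at 0 in P2 superior cones and had a mean of 5.11 CPM in P2 inferior cones, and gave 0.61, 2.32, 1.90 and 1.49 afterward. Syndig1l gave -0.58, -2.53, -5.66, -7.55 and -4.86. Vax2 was lower in superior cones at every age, from -3.5 at 2m to -7.37 at P8. App gave 1.02, -3.50, -1.75, -7.45 and -0.77, so its P60 value stood far from that at 2m. By their labels the P60 and 2m cones are of about the same age but come from separate collections.

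**Figure D5:**
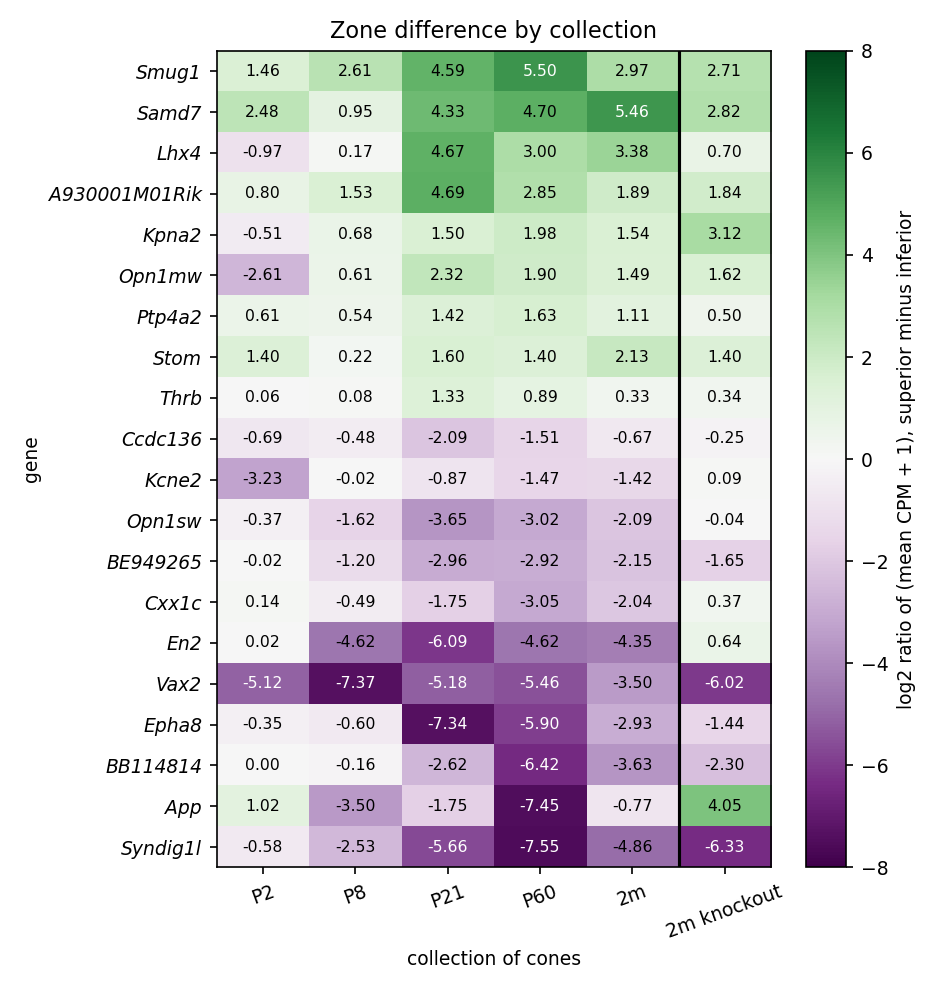
Log2 ratio of (mean CPM + 1), superior minus inferior, for 20 genes (vertical) in the 5 control collections and the 2m TRβ2 knockout (horizontal), green where superior cones were higher and purple where inferior cones were. Smug1 and Samd7 are above 0 and Syndig1l and Vax2 below 0 in all 6 columns, whereas Opn1sw is at -0.04 in the knockout; ratios of genes near 0 in 1 zone depend on the pseudocount.

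Collections are the only replicates of the zone comparison, so a test was run on the other 4 (P2, P8, P21 and 2m), into which no P60 value entered. In limma with the collection as a block, on log2 of mean CPM, 0 of 10384 genes (0%) passed a Benjamini-Hochberg adjusted p of 0.05, and 603 had an unadjusted p under 0.05. On the mean of log2 values over cells limma called 5 genes (0.0482%). They were Smug1 (5.64 ± 0.53 SE, adjusted p = 6.62e-05 by limma), Syndig1l (-4.57 ± 0.65, adjusted p = 0.0069 by limma), Opn1sw (-3.30 ± 0.50, adjusted p = 0.00958 by limma), Samd7 (3.40 ± 0.52, adjusted p = 0.00958 by limma) and the ubiquitin ligase gene Pja1 (2.68 ± 0.38, adjusted p = 0.0069 by limma). The first 4 had the same direction in all 5 control collections and met the P60 size rule. Pja1 had a P60 log2 ratio of 0.92, with 20 of 26 superior and 11 of 21 inferior cones above 1 CPM, and did not meet it. On reads recovered from the CPM and summed per zone, edgeR's quasi-likelihood test called 0 of 10390 genes (0%; 357 at an unadjusted p under 0.05) and DESeq2 called 315 (3.03%), 137 higher in superior and 178 in inferior cones. Of the P60 size rule genes, 33 superior (5.25%, against 3.58% of all counted genes) and 34 inferior (10.4%, against 2.23%) had an unadjusted limma p under 0.05 in the same direction in the other 4 collections.

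Whether the P60 difference departed from that of the other control collections was tested on the 5 zone differences. limma called 0 of 10384 genes (0%), with 701 at an unadjusted p under 0.05 and a smallest adjusted p of 0.0924. App differed from the other collections by -6.20 ± 1.48 SE (adjusted p = 0.592 by limma) and Smug1 by 2.59 ± 0.97 (adjusted p = 0.689 by limma). With a pseudocount of 10 CPM limma called 1 gene. With P60 as 1 value, so few calls cannot show that P60 is like the other collections.

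In 2m Trb2Cre-KO:Ai6 cones, which lack TRβ2, the log2 ratio between the zones was far from 0 for some of the P60 genes and near 0 for others. The knockout log2 ratios were 2.71 for Smug1, 2.82 for Samd7, -6.33 for Syndig1l and -6.02 for Vax2. They were -0.04 for Opn1sw, -0.25 for Ccdc136, 0.37 for Cxx1c, 0.09 for Kcne2 and 0.64 for En2. The 2m control values for those 5 genes were -2.09, -0.67, -2.04, -1.42 and -4.35. The difference between genotypes was not tested here.

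Regions deposited with the series were set beside the genes: 4590 regions bound by a tagged TRβ in embryonic day 18 retina, and 5049 and 4072 open regions of P30 cone nuclei that the deposited lists, from a comparison of control and TRβ2 knockout nuclei, name induced and suppressed. The direction is as in those names. A bound region lay within 50 kb of 37.7% of superior genes, 48.6% of inferior genes and 39.2% of all counted genes that could be placed. The shares for induced regions were 38.1%, 40.8% and 35.9%, and for suppressed regions 11.5%, 16.9% and 12.7%. A bound region overlapped the higher-coordinate edge of Opn1sw at chr6:29380490-29380789, and a suppressed region lay within the gene at chr6:29378831-29379219. Opn1mw held an induced region over its edge at chrX:74127180-74127813, and no bound region was listed within 50 kb of it. Smug1 held an induced region at chr15:103154386-103154644, Samd7 a bound region at chr3:30746086-30746385 and Syndig1l one at chr12:84697324-84697623. Outside the genes, a bound region lay 3697 bp from Smug1. Induced regions lay 2381 bp from Samd7, 2164 bp from Syndig1l and 10860 bp from Opn1sw. Within Kcne2 a bound region (chr16:92295254-92295553) and an induced region (chr16:92295092-92295682) overlapped each other. Coordinates are those of the mm10 files. Nearness is a description and does not show that a region acts on a gene.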

How the data were processed

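Full-length RNA of single cones was sequenced and the authors deposited a table of CPM values (a gene's reads scaled to a common library total) for 10390 genes. Per the submitters' processing notes, bcl2fastq 2, STAR 2.7.3a and MACS2 2.2.7.1 were used with GRCm38 (mm10). No source used here gives the gene counter, a filter on genes or the strand setting. Low CPM values were whole multiples of the value of 1 read in 100% of values (tolerance 0.1 read), so reads per library were recovered; edgeR and DESeq2 on these called 0 and 315 genes in the 4 other control collections. Counting intervals and limits cover counting error only, since reads carry no molecular identifiers. The ChAP-seq list was deposited with a p-value per region in the authors' list, used here for positions only, and the ATAC-seq lists with a constant score from the authors, likewise for positions only.

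Gene symbols came from the table (13 turned into numbers were restored by gene ID) and positions from RefSeq for GRCm38.p6, where 10146 of 10390 gene IDs matched. Zone means, shares and ratios were computed with Python 3.11.15, pandas 2.3.3 and scipy 1.17.1. The zone tests used R 4.3.3 with limma 3.58.1, edgeR 4.0.16 and DESeq2 1.42.0, on one value per zone and collection, with Benjamini-Hochberg adjustment over all genes. P-values then measure only the spread between collections of different ages. The scripts were tested on simulated data. No doublet caller was run. Named were the 4 genes Opn1sw, Opn1mw, Smug1 and Thrb, list members past the size rule, and the 12 genes per direction with the largest ratio and the same sign at 2m; others were named after their values were seen. The members, the 27 gene lists and the rules were chosen with earlier results of these data known. Promoter sequences were not analysed here, and 1 gene is not reported here and was left out of the lists.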

Additional observations from a re-analysis of the deposited data

How the results depend on the processing

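The zones at P60 hold 26 and 21 cells of an unknown number of animals, so their ratios have no replicate error, and genes in few cells are limited by depth. The 629 superior and 328 inferior genes became 1266 and 653 on the mean of log2 values alone, 226 and 118 with a pseudocount of 10 CPM, and 250 and 114 where at least 50% of cells had to be above 1 CPM. The other settings stayed within 1.5 times. Of 957 genes, 834 still met the rule without the 2 rod-rich cells, a setting chosen after seeing the data. The repeat in 2m controls went from 101 and 53 genes to 173 and 20 on the mean of log2 values. The 4 other collections gave 0 genes in limma, 5 on the mean of log2 values and 315 in DESeq2; leaving out each collection in turn gave 0 each time in limma (471 to 561 at an unadjusted p under 0.05). The P60 departure gave 0 genes in limma and, with a pseudocount of 10 CPM, 1 gene. The cause of the changes was not tested. Over 46 named genes and 6 settings, 54 of 276 log2 ratios moved by more than their SD over the 5 control collections and 0 changed sign. That SD is wide for genes near 0 in 1 zone, whose ratios follow the pseudocount: App went from -7.45 to -10.54 with 0.1 CPM and -4.22 with 10 CPM. Keeping libraries 03 and 14 as 2 cells moved 0 of the 46. No paired analysis was possible because the replicate numbers only name cells and the P60 comparison comes from no test. The promoter search was not run.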
